A study of Homo sapiens with 6 samples.

Results

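The genes described here encode ligands, receptors, inhibitors, signal transducers and target genes of the TGF-beta and BMP pathways. They were chosen by name as a list of 40 symbols, of which 39 were matched by Ensembl identifier to the 17211 genes of the deposited table; ID4 was not analysed here. Their transcripts were measured by RNA sequencing in CAOV2 cells, which the labels call both an ovarian cancer cell line and primary ovarian cancer cells. The siTAZ group was transfected with siRNA against TAZ, the protein encoded by WWTR1, and the siNT group with a non-targeting siRNA. Both groups were otherwise handled alike: 100000 cells per well were given 100 pmol of siRNA and 6 µL of lipid reagent for 2 days and were collected on day 3. There were 3 libraries per group, called biological replicates in their titles. Replicate numbers below are those of the titles, and the column headers of the deposited values carry other numbers. The labels name 1 siRNA product per group, so the loss of TAZ and any other action of that product cannot be told apart.

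TGF-beta family ligands are secreted as dimers and bring together type I and type II receptor kinases at the cell surface. TGF-beta and activin receptors phosphorylate SMAD2 and SMAD3, BMP receptors phosphorylate SMAD1 and SMAD5, and either set joins SMAD4 to regulate genes in the nucleus. Follistatins trap ligands outside the cell, while inhibitory SMADs, SMURF ligases, BAMBI and PMEPA1 restrain the signal inside it. In ovarian cancer cells the family is known for effects on growth, invasion and epithelial state, and TAZ is known as a transcriptional coactivator that can bind SMAD complexes.

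The libraries held 25478595 to 34488196 reads in genes. A level below is the deposited value, reads over 1 size factor for each library. Group levels are means ± SD over n = 3 libraries. Fold changes are siTAZ over siNT, either as ratios of mean values or as log2 of (value + 1), tested with limma over all 17204 genes with a mean of at least 1. WWTR1 fell from 4359, 4217 and 4258 in siNT replicates 1, 2 and 3 to 242, 277 and 279.7 in siTAZ replicates 1, 2 and 3 (16.1-fold), as the labels state. Of 14 epithelial and Mullerian markers 11 were measured, with a summed value of 103175 to 112128 in siNT and 94917 to 103415 in siTAZ. Of these 5 rose and 3 fell, with log2 fold changes from -1.45 (CLDN4) to 1.44 (EPCAM). The keratins KRT8 and KRT18 were abundant, at 35206 ± 1349 and 27495 ± 1133 in siNT. The Mullerian lineage markers PAX8 and MUC16 were scarce, at 28.8 ± 13.9 and 11.9 ± 3.67 in siNT, and WT1, WFDC2 and SOX17 were not analysed here. Of 10 fibroblast markers 6 were measured, with a summed value of 5609 to 6399 in siNT and 6614 to 7502 in siTAZ. They did not move alike: 3 rose and 1 fell, with log2 fold changes from -2.71 (COL1A2) to 1.76 (PDGFRB). COL1A1, COL1A2 and COL3A1 of these 6 also stand on the list of TGF-beta response genes below, and DCN, FAP, THY1 and POSTN were not analysed here. The 4 measured of 8 leukocyte markers summed to 151 to 161 in siNT and to 283 to 339 in siTAZ, with PTPRC, CD3E and MS4A1 among those not analysed here. Of these 4 markers 2 rose and 2 did not pass, with log2 fold changes from -0.15 to 2.54 (LYZ). EGFL7, the single endothelial marker measured of 8, ranged from 312 to 372 in siNT and from 467 to 506 in siTAZ. The part of these marker genes in the results below was not tested. In bulk RNA, fewer cells of a type and less RNA per cell cannot be told apart.

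In the siTAZ libraries, transcripts of the follistatin family members FSTL3, FST and FSTL1 and of the ligands TGFB1 and TGFB2 were lower, and those of 6 receptors and of the BMP target genes ID2 and ID3 were higher. FSTL3, FST and FSTL1 fell 3.24-fold, 2.3-fold and 1.74-fold, and TGFB2 fell 1.97-fold. TGFBR3 rose 3.03-fold and ACVR1B 1.85-fold, while ID3 rose 1.65-fold, ID2 1.53-fold and BAMBI 1.61-fold. Of the 39 genes, 15 rose, 12 fell and 12 did not pass at a limma adjusted p of 0.05. The same test called 55.8% of all genes, with 28.3% higher and 27.5% lower. Of genes whose mean reached 100, the test called 66.1%, with 32.5% higher and 33.7% lower, against 13 higher and 11 lower of the 34 listed genes at that level. The share of calls among those 34, 70.6%, was thus near that of all genes at such levels. Changes of at least 1.5-fold passed the test in 12 of the 39 genes and in 22.2% of all genes (13.0% higher and 9.24% lower), and changes of at least 2-fold in 4 of the 39 and in 10.6% of all genes. The siNT and siTAZ libraries did not overlap in 27 of the 39 genes and in 61.4% of all genes. The median log2 fold change was 0.082 over the 39 genes and -0.0013 over all genes tested.

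**Figure D1:**
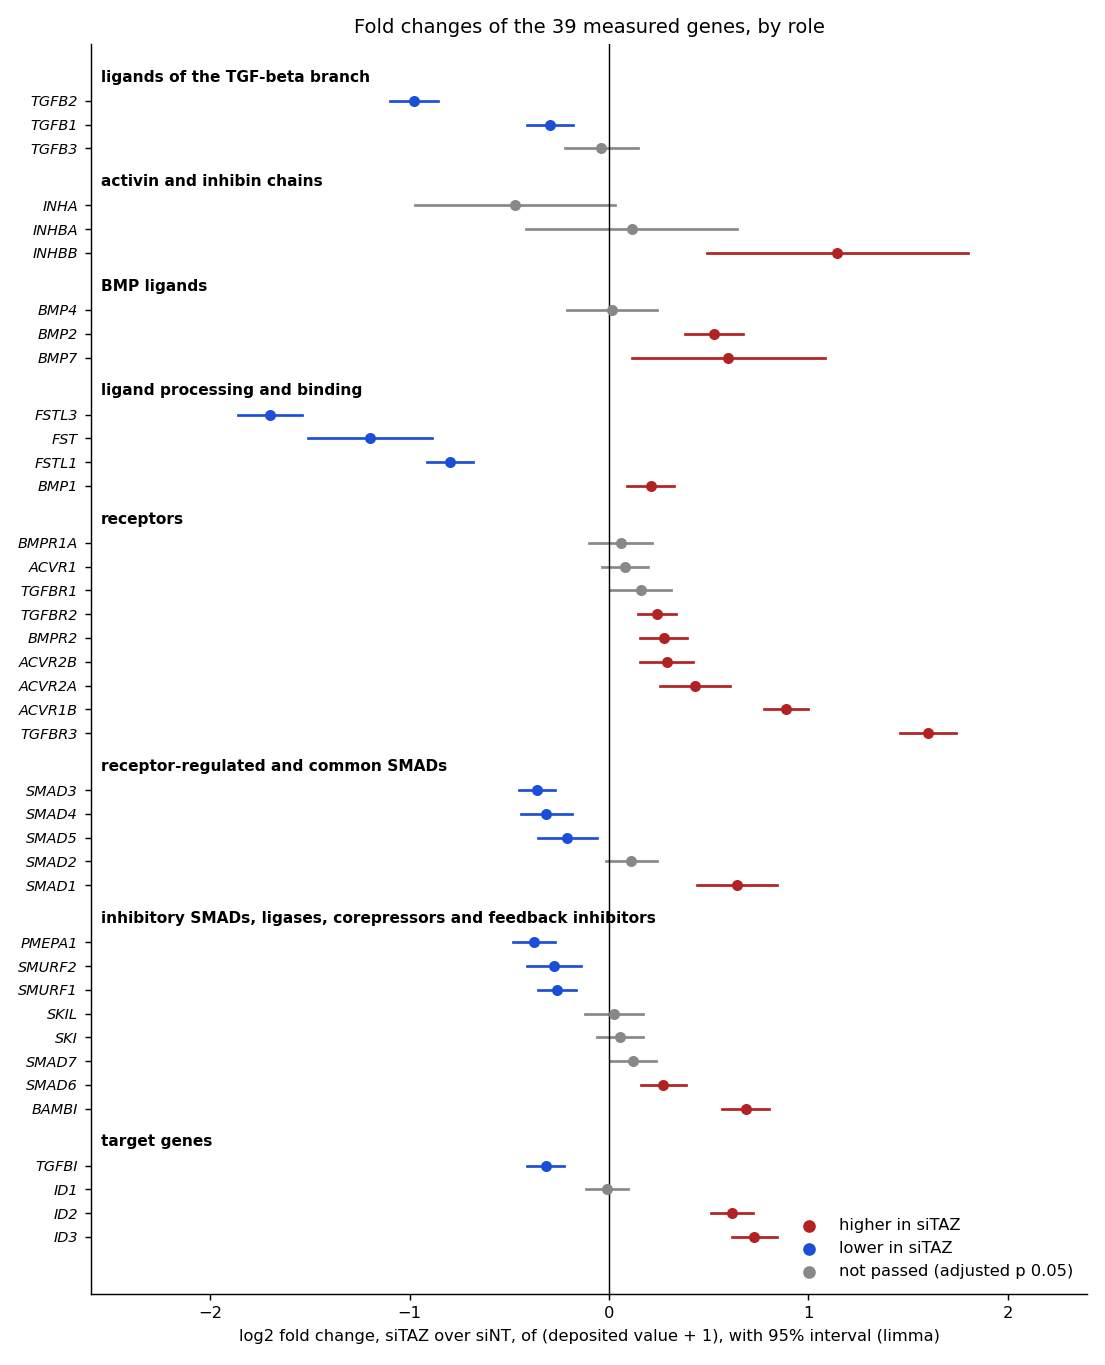
Log2 fold change, siTAZ over siNT, of each of the 39 measured genes (x axis, on the log2 scale of value + 1), grouped by role, with limma's 95% interval; red marks genes that rose, blue those that fell and grey those that did not pass. FSTL3 at -1.70 and TGFBR3 at 1.60 are the ends of the range, and the point estimates of all 9 receptors lie right of 0, that of BMPR1A turning to -0.013 without siNT replicate 3.

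Of the 3 TGF-beta ligands, TGFB1 and TGFB2 fell and TGFB3 did not pass. TGFB1, the ligand most widely made by epithelial and immune cells, read 12722, 14191 and 14112 in siNT replicates 1, 2 and 3 and 11823, 10482 and 11079.9 in siTAZ replicates 1, 2 and 3, the order used throughout. The siTAZ values all lay below the siNT values, with log2 fold change -0.30 ± 0.054 (SE) and limma adjusted p = 1.8e-04. TGFB2, a ligand that needs the co-receptor betaglycan for efficient binding to its receptors, read 1875, 1715 and 1774 in siNT and 880.1, 909 and 929.6 in siTAZ. Here the groups were far apart and the libraries within each close together, with log2 fold change -0.98 ± 0.056 (SE) and limma adjusted p = 2.8e-10. TGFB3 read 306, 367 and 348 in siNT and 321, 341 and 329 in siTAZ, and the groups overlapped (95% interval of the log2 fold change -0.22 to 0.14, limma adjusted p = 0.72). The log2 ratio of TGFB2 to TGFB1 within a library was -2.93 ± 0.15 in siNT and -3.62 ± 0.12 in siTAZ, a difference of -0.68 that left no overlap between the groups (two-sided exact permutation test p = 0.10, the smallest that 3 against 3 libraries allow; 0.10 after Benjamini-Hochberg adjustment over the 4 ratios computed). Such a ratio is of (value + 1) and depends on the size factor only through the 1 added to each value. Per kilobase of exons, TGFB1 stood at 4223 ± 255 in siNT, TGFB2 at 347 ± 15.8 and TGFB3 at 69.2 ± 6.35, so TGFB1 made up 91.0% ± 0.69 of the summed level of the 3 ligands in siNT and 93.4% ± 0.50 in siTAZ. Exons of TGFB1 overlap HNRNPUL1 on the opposite strand over 6.6% of their length, and HNRNPUL1 rose from a mean of 22983 to 25300. Exons of TGFB2 overlap the noncoding TGFB2-OT1 on the same strand over 26.6% of theirs, with the strand setting of the counting not given in the sources used here.

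Activin and inhibin chains were scarce, with mean levels per kilobase of exons in siNT of 2.86 for INHBA, 4.07 for INHBB and 19.8 for INHA. Activins are dimers of INHBA or INHBB chains, and inhibins, which oppose them, pair one of these with INHA. INHBB read 15.7, 14.96 and 8.46 in siNT and 19.7, 39.5 and 31.6 in siTAZ. It rose without overlap of the groups, with log2 fold change 1.15 ± 0.31 (SE) and limma adjusted p = 0.0045. INHBA read 19.9, 23.5 and 27.8 in siNT and 34.3, 21.1 and 23.03 in siTAZ, and the groups overlapped (95% interval of the log2 fold change -0.41 to 0.64, limma adjusted p = 0.72). INHA read 27.2, 40.6 and 36.3 in siNT and 28.1, 27.5 and 18.8 in siTAZ, a log2 fold change of -0.47 with limma adjusted p = 0.10. It passed, as lower, only without siNT replicate 1 (limma adjusted p = 0.044).

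Among the BMP ligands, BMP2, a potent inducer of bone and of ID genes, rose. It read 511, 576 and 579 in siNT and 774, 805 and 823 in siTAZ, with no overlap and log2 fold change 0.53 ± 0.069 (SE) and limma adjusted p = 5.1e-06. Its close relative BMP4 read 246, 295 and 263 in siNT and 298, 231 and 286 in siTAZ, and the groups overlapped (95% interval -0.21 to 0.24, limma adjusted p = 0.92). BMP7, a ligand of kidney and bone formation, read 21.99, 35.3 and 26.6 in siNT and 33.2, 49.6 and 45.2 in siTAZ and passed despite overlapping groups (log2 fold change 0.60, limma adjusted p = 0.034). That call was lost in DESeq2 (adjusted p = 0.091), without an intensity trend (0.072) and on leaving out siNT library 1 (0.12) or 3 (0.071) or siTAZ library 2 (0.14) or 3 (0.10). Per kilobase, BMP2 stood at 154 ± 10.7 in siNT, BMP4 at 87.01 ± 8.05 and BMP7 at 5.16 ± 1.25.

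FSTL3 and FST, which trap ligands, showed the largest falls on the list. FSTL3, a secreted relative of follistatin that binds activins and myostatin, read 1174, 1219 and 1201 in siNT and 416, 353 and 339 in siTAZ. The lowest siNT library was thus far above the highest siTAZ library, with log2 fold change -1.70 ± 0.076 (SE) and limma adjusted p = 1.2e-11. FST, follistatin itself, which binds activins almost irreversibly, read 127, 142 and 123 in siNT and 47.8, 66.1 and 56.3 in siTAZ. Every siTAZ library lay below every siNT library, with log2 fold change -1.20 ± 0.15 (SE) and limma adjusted p = 2.6e-06. FSTL1, a more distant family member reported to bind BMP4, read 1836, 1790.4 and 1756 in siNT and 988, 1049 and 1062 in siTAZ, with log2 fold change -0.80 ± 0.054 (SE) and limma adjusted p = 2.2e-09. BMP1, which despite its name is a protease that cleaves procollagens and the BMP antagonist chordin, rose from 2484 ± 158 to 2868 ± 126 (a log2 change of 0.21, limma adjusted p = 0.0043; 0.051 without an intensity trend). Per kilobase of exons the summed level of FST and FSTL3 went from 435 ± 9.97 to 139 ± 11.3, and FSTL3 was 89.9% ± 0.59 of it in siNT. The log2 ratio of INHBA to FST within a library was -2.42 ± 0.27 in siNT and -1.11 ± 0.58 in siTAZ, a 2.49-fold shift with no overlap between groups (two-sided exact permutation test p = 0.10, 0.10 adjusted over the 4 ratios). This ratio holds the fall of FST, whereas INHBA was scarce and did not pass (limma adjusted p = 0.72), so it is not a separate result.

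The promoters of FSTL3, FST and TGFB2 are shown because all 3 genes fell with large changes. They are the 250 bases before the transcription start, 5′ to 3′ on the gene's own strand, from RefSeq on GRCh38.p14, a later build than the hg19 of the submitters' processing notes. Capitals mark 5 motifs searched on both strands: GGAATG of TEAD factors, TGANTCA as a loose form of the AP-1 site, CAGAC and GTCTAGAC of SMADs, and GGCGCC, a GC-rich element of BMP SMADs. The N stands for any base, where the AP-1 consensus has C or G. GTCTAGAC does not contain CAGAC on either strand. The FSTL3 window lies at chr19:676142-676391, plus strand, the FST window at chr5:53480379-53480628, plus strand, and the TGFB2 window at chr1:218345086-218345335, plus strand.
FSTL3: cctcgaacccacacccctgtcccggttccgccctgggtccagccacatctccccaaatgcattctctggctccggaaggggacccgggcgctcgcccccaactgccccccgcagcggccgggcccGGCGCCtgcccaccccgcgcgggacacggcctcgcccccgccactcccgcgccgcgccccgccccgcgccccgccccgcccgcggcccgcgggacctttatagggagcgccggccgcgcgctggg
FST: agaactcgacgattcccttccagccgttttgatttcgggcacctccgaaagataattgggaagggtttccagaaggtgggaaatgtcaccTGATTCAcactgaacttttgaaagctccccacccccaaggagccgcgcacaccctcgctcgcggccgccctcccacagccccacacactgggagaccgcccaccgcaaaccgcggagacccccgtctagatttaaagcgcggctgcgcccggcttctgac
TGFB2: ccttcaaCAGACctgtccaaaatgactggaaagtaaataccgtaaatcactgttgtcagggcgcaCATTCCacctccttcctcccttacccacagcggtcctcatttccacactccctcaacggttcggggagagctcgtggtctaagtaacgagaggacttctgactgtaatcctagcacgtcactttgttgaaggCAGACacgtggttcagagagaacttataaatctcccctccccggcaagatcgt
FSTL3 holds 1 GGCGCC, FST holds 1 match to TGANTCA, and TGFB2 holds 1 GGAATG, read on the opposite strand as CATTCC, and 2 CAGAC. The match in FST is TGATTCA, which is not the AP-1 consensus. Of 39 measured genes, 35 had at least 1 such window, 63 windows in all. GGAATG was in 6 of these (9.52%) and in 11.9% of all 34943 promoter windows, and TGANTCA was in 5 (7.94%) and in 6.59%. CAGAC was in 36.5% against 38.0%, and GGCGCC in 28.6% against 16.4%. The windows were not matched for GC content, and some genes had several windows, in part overlapping, so the windows are not independent. GGCGCC stood in 6 of 19 windows of genes that fell, 6 of 18 of genes that rose and 6 of 26 of genes that did not pass. GGAATG stood in 2 of 19 windows of genes that fell, 1 of 18 of genes that rose and 3 of 26 of genes that did not pass. These matches describe letters in the windows and no more.

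**Figure D2:**
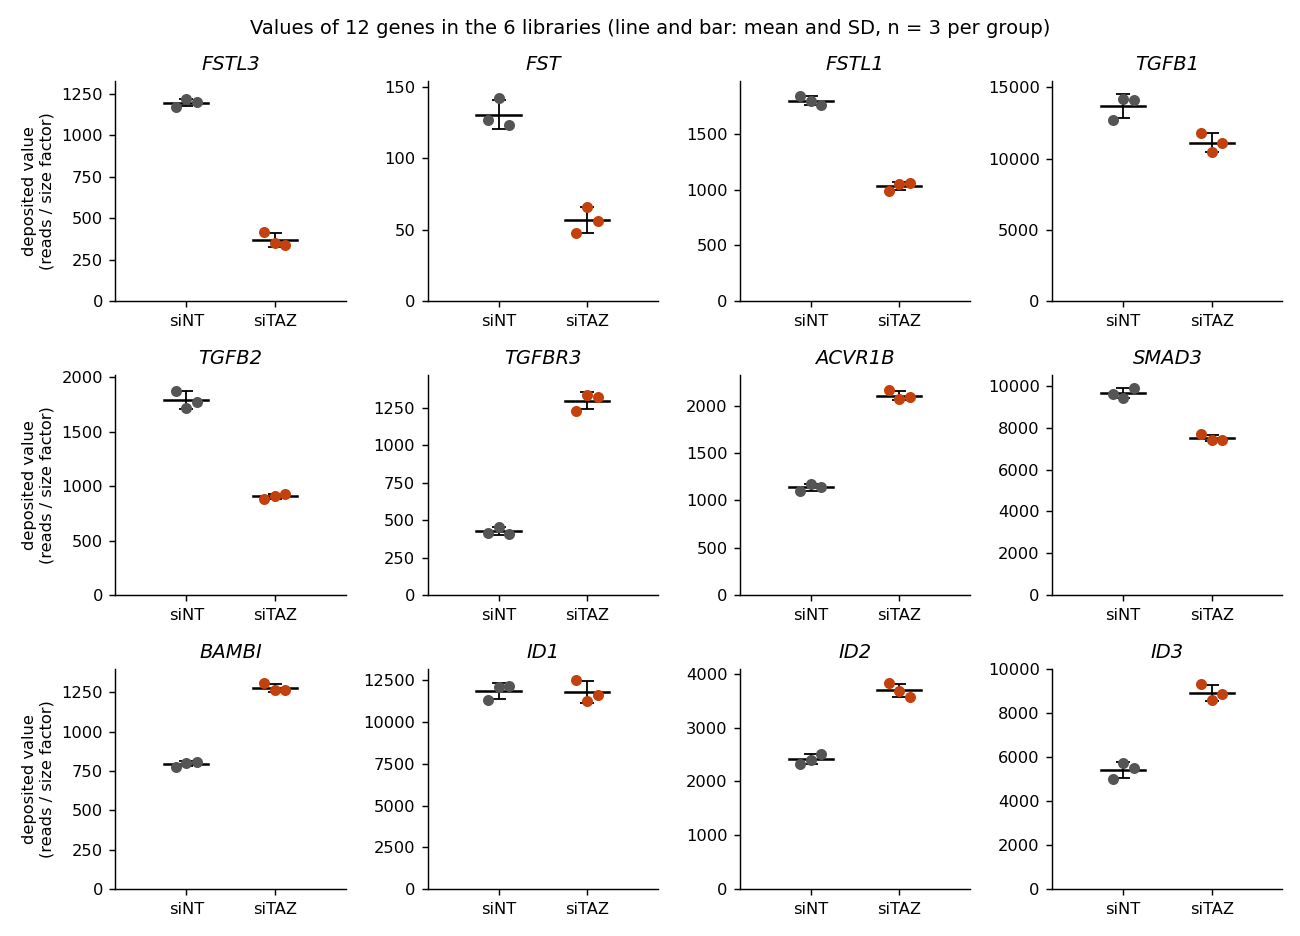
Deposited values (reads divided by the size factor, y axis from 0) of 12 of the genes in the 6 libraries; points are libraries, and the line and bar are the mean and SD (n = 3 per group). In every panel but that of ID1 the siNT and siTAZ libraries do not overlap, against 27 of the 39 genes and 61.4% of all genes.

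Of the 9 receptors 6 rose (66.7%) and the other 3 did not pass, where the test called 55.8% of all genes and 66.1% of those whose mean reached 100, with 28.3% and 32.5% higher. The median of their log2 fold changes was 0.27. TGFBR3, the co-receptor betaglycan, which presents TGF-beta2 and inhibin to the signalling receptors, read 414, 457 and 411 in siNT and 1231, 1334 and 1323 in siTAZ. All siTAZ libraries were more than 2-fold above all siNT libraries, with log2 fold change 1.60 ± 0.067 (SE) and limma adjusted p = 6.0e-12. ACVR1B, the type I activin receptor ALK4, read 1102, 1167 and 1139.5 in siNT and 2160.1, 2069.7 and 2085 in siTAZ, with log2 fold change 0.89 ± 0.052 (SE) and limma adjusted p = 3.5e-10. It was the largest rise among the signalling receptor kinases on the list.

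The type II receptors, whose kinases activate the type I receptors, all rose by smaller amounts. ACVR2A, an activin and BMP receptor, read 503, 405 and 471 in siNT and 575, 643 and 636 in siTAZ, with log2 fold change 0.43 ± 0.084 (SE) and limma adjusted p = 3.1e-04. Its exons overlap ORC4 on the opposite strand over 6.4% of their length. ACVR2B, its paralog, rose from 769 ± 40.8 to 939 ± 35.3, BMPR2 from 2829 ± 157 to 3421 ± 194, and TGFBR2 from 4410.2 ± 116 to 5215 ± 143 (log2 fold changes 0.29, 0.27 and 0.24, limma adjusted p = 9.0e-04, 4.6e-04 and 2.4e-04). In each of these 4 genes the siTAZ libraries all lay above the siNT libraries. Over all genes, the groups did not overlap in 61.4%, counting both directions.

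The remaining type I receptors did not pass. TGFBR1, the kinase ALK5 that carries the TGF-beta signal, read 1022, 913 and 889 in siNT and 959, 1049 and 1146 in siTAZ, and the groups overlapped (log2 fold change 0.16, limma adjusted p = 0.075). It passed, as higher, under total count scaling (limma adjusted p = 0.026) and without siNT replicate 1 (0.017) or siTAZ replicate 1 (0.0078). ACVR1, the BMP receptor ALK2, went from 1145 ± 23.7 to 1212 ± 27.7 (95% interval of the log2 fold change -0.033 to 0.20, limma adjusted p = 0.21), and it too passed under total count scaling (0.043). BMPR1A, the BMP receptor ALK3, stood at 733 ± 75.4 and 762 ± 30.1 (95% interval -0.098 to 0.22, limma adjusted p = 0.52), and it has processed pseudogenes that could share its reads. Per kilobase of exons in siNT, TGFBR2 stood highest of the receptors at 938 ± 24.6, followed by ACVR1 at 287 ± 5.94, BMPR2 at 238 ± 13.2, ACVR1B at 199.7 ± 5.79 and TGFBR1 at 138 ± 10.3. This order depends on the exon lengths used: with 11.9 kb for BMPR2 and 3.99 kb for ACVR1, BMPR2 stood above ACVR1 before division. ACVR1B held 29.01% ± 1.15 of the summed per-kilobase level of the 4 type I receptors in siNT and 41.4% ± 1.41 in siTAZ, where it stood above ACVR1. TGFBR2 held 72.6% ± 0.59 and 71.7% ± 1.32 of that of the 4 type II receptors, a difference smaller than the SD in siTAZ.

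**Figure D3:**
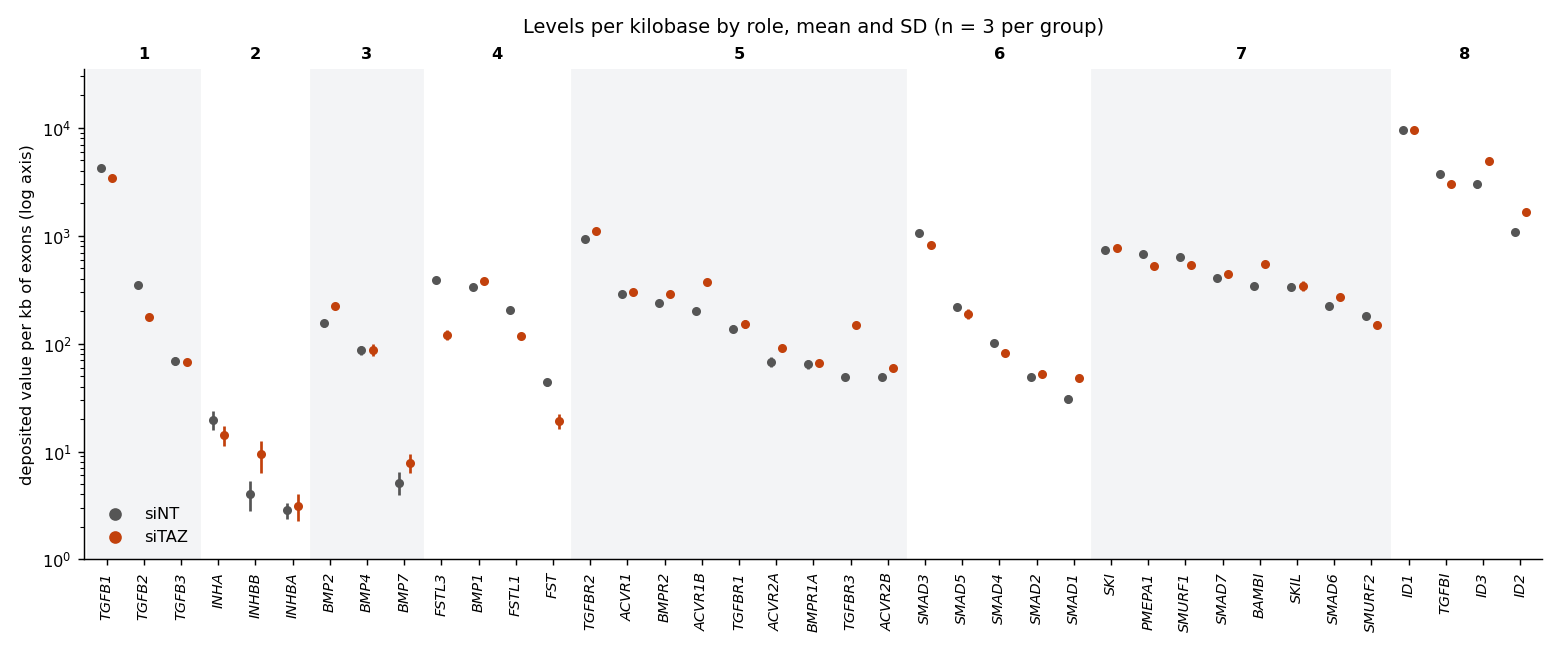
Deposited value per kilobase of exons (log y axis, mean and SD, n = 3 per group) of the 39 genes in siNT (grey) and siTAZ (orange), in bands numbered by role: 1 TGF-beta ligands, 2 activin and inhibin chains, 3 BMP ligands, 4 ligand processing and binding, 5 receptors, 6 receptor-regulated and common SMADs, 7 inhibitors, 8 target genes. ID1 stands highest in siNT at 9615 and INHBA lowest at 2.86.

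Of the 5 signal-carrying SMADs, SMAD3, SMAD4 and SMAD5 fell, SMAD1 rose and SMAD2 did not pass. The test called 28.3% of all genes higher and 27.5% lower. Among genes whose mean reached 100, as in all 5 SMADs, it called 32.5% higher and 33.7% lower. SMAD3, which carries TGF-beta and activin signals to DNA, read 9598, 9435 and 9903 in siNT and 7693, 7423 and 7415 in siTAZ. It fell by a small amount with tight replicates, with log2 fold change -0.36 ± 0.044 (SE) and limma adjusted p = 2.2e-06. SMAD4, the partner of all receptor-regulated SMADs, read 1361, 1290.2 and 1335 in siNT and 994, 1123 and 1093 in siTAZ, with log2 fold change -0.31 ± 0.060 (SE) and limma adjusted p = 2.7e-04. SMAD2, the partner of SMAD3 in the same branch, went from 1770.2 ± 85.98 to 1915 ± 139.9 and did not pass (95% interval -0.016 to 0.24, limma adjusted p = 0.13). SMAD2 passed, as higher, under total count scaling (0.034) and without siNT replicate 1 (0.0496) or siTAZ replicate 1 (0.013).

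SMAD1 and SMAD5, the transducers of BMP signals, went in opposite directions. SMAD1 read 205, 177 and 175 in siNT and 300.3, 286 and 283 in siTAZ, with log2 fold change 0.64 ± 0.095 (SE) and limma adjusted p = 2.0e-05. SMAD5 read 2127, 1903 and 1894 in siNT and 1534, 1709 and 1892 in siTAZ (log2 fold change -0.21, limma adjusted p = 0.018), and its groups only just failed to overlap. The SMAD5 call was lost under total count scaling (0.081), without an intensity trend (0.13) and without siNT replicate 1 (0.072) or siTAZ replicate 1 (0.067). A gene on the same strand overlaps 7.4% of the exons of SMAD4, and antisense genes overlap 6.2% of the exons of SMAD1 and 6.7% of those of SMAD5. Per kilobase of exons SMAD3 made up 72.6% ± 1.23 of the summed level of the 5 SMADs in siNT and 68.9% ± 1.94 in siTAZ, and SMAD1 2.11% ± 0.17 and 4.004% ± 0.16. These shares depend on the exon lengths used, 36.4 kb for SMAD2 against 9.11 kb for SMAD3 and 6.06 kb for SMAD1. The SDs do not cover that uncertainty.

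Inhibitors inside the cell split in both directions. BAMBI, a pseudoreceptor without a kinase that blocks TGF-beta receptors and is itself induced by BMP and WNT signals, read 777, 801 and 807 in siNT and 1308, 1263 and 1268 in siTAZ. Its siTAZ libraries agreed closely and all lay above siNT, with log2 fold change 0.69 ± 0.056 (SE) and limma adjusted p = 2.0e-08. SMAD6, an inhibitory SMAD that mainly restrains BMP signals, read 1807, 1997 and 1917 in siNT and 2399, 2244 and 2269 in siTAZ, with log2 fold change 0.27 ± 0.054 (SE) and limma adjusted p = 3.5e-04. SMAD7, the inhibitory SMAD best known for restraining TGF-beta receptors, read 1975, 2012 and 2182 in siNT and 2304, 2261 and 2133 in siTAZ. It did not pass (95% interval 0.0037 to 0.23, limma adjusted p = 0.074), but did so as higher under total count scaling (0.011) and without siNT replicate 3 (0.038). The log2 ratio of SMAD7 to SMAD3 rose from -2.23 ± 0.049 to -1.75 ± 0.042, a 1.39-fold shift with no overlap (two-sided exact permutation test p = 0.10, 0.10 adjusted over the 4 ratios).

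PMEPA1, a membrane protein that TGF-beta induces and that sequesters SMAD2 and SMAD3, read 3708, 3857 and 3884 in siNT and 3097, 2829 and 2905 in siTAZ, with log2 fold change -0.38 ± 0.050 (SE) and limma adjusted p = 5.9e-06. NKILA, an antisense gene, overlaps 6.1% of its exons. PMEPA1 thus fell, as did the ubiquitin ligases SMURF1 and SMURF2, which mark SMADs and receptors for destruction. SMURF1 went from 4014 ± 93.5 to 3347 ± 37.4 and SMURF2 from 1264 ± 54.2 to 1045 ± 79.03 (log2 fold changes -0.26 and -0.28, limma adjusted p = 1.1e-04 and 0.0015). Exons of SMURF1 overlap TRRAP on the opposite strand over 11.7% of their length, and TRRAP fell from 3806 to 2910. SMURF2 has a transcribed pseudogene copy, SMURF2P1, in the table. The corepressors SKI and SKIL, which silence SMAD targets in the resting state, did not pass: SKI stood at 4487 ± 206 and 4666 ± 309.7 (95% interval -0.060 to 0.17) and SKIL at 2631 ± 209 and 2681 ± 261 (95% interval -0.12 to 0.17).

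Target genes separated the BMP-responsive ID family within itself. ID proteins are helix-loop-helix factors without a DNA-binding region that hold other such factors inactive, and they are classical direct targets of BMP SMADs. ID3 read 4986, 5711 and 5486 in siNT and 9319, 8600.1 and 8859.8 in siTAZ, with log2 fold change 0.73 ± 0.053 (SE) and limma adjusted p = 5.4e-09. ID2 read 2325, 2402 and 2507 in siNT and 3829.9, 3676 and 3577 in siTAZ, with log2 fold change 0.62 ± 0.050 (SE) and limma adjusted p = 1.7e-08. Both rose without overlap of the groups, and the antisense ID2-AS1 overlaps 1.7% of the exons of ID2. ID1 read 11303, 12118 and 12145 in siNT and 12508, 11244 and 11625 in siTAZ, fully overlapping, and its 95% interval of the log2 fold change was -0.11 to 0.097 (limma adjusted p = 0.90). Within a library, the log2 ratio of ID1 to ID2 went from 2.30 ± 0.033 to 1.67 ± 0.053, without overlap (two-sided exact permutation test p = 0.10, 0.10 adjusted over the 4 ratios). Per kilobase of exons ID1 nevertheless stood highest of the 3 in both groups, at 70.1% ± 0.41 of their sum in siNT and 59.0% ± 0.44 in siTAZ, while ID3 went from 21.9% ± 0.61 to 30.7% ± 0.24.

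TGFBI, a secreted matrix protein named for its induction by TGF-beta, read 28724, 29366 and 29916 in siNT and 23806, 22975 and 23802 in siTAZ, with log2 fold change -0.32 ± 0.044 (SE) and limma adjusted p = 8.9e-06. The siTAZ libraries all lay below the siNT libraries. Per kilobase of exons TGFBI stood at 3756 ± 76.4 in siNT, below ID1 and TGFB1. That rank rests on the exon lengths used, 7.81 kb for TGFBI, 3.24 kb for TGFB1 and 1.23 kb for ID1. Before division by length TGFBI stood above both in siNT, at 29335 ± 596 against 13675 ± 826 for TGFB1 and 11855 ± 479 for ID1.

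The promoters of ID1, ID2, ID3 and SMAD6 are shown as those of genes that BMP SMADs are known to regulate and that did not move alike. The windows are again of 250 bases with the same motifs in capitals, at chr20:31605039-31605288, plus strand for ID1, chr2:8681806-8682055, plus strand for ID2, chr1:23559502-23559751, minus strand for ID3 and chr15:66701986-66702235, plus strand for SMAD6.
ID1: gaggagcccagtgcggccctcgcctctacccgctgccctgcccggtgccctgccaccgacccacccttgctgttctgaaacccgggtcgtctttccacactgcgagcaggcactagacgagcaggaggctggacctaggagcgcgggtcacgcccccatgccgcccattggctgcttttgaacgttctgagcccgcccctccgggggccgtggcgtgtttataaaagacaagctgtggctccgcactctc
ID2: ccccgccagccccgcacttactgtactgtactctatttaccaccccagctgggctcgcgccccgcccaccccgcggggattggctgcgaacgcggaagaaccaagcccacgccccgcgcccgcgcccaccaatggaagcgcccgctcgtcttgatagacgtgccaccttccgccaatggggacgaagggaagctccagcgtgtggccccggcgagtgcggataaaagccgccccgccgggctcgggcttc
ID3: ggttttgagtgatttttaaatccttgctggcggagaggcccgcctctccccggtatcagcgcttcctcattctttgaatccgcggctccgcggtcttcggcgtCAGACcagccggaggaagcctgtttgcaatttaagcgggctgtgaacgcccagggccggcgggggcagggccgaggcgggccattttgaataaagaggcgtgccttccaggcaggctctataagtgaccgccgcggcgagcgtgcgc
SMAD6: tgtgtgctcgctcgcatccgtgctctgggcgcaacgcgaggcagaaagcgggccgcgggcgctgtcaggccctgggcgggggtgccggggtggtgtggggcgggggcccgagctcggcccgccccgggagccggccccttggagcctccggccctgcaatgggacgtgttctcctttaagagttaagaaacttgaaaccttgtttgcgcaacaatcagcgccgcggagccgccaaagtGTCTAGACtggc
The SMAD6 window holds the full GTCTAGAC palindrome close to the start, which was in 1 of the 63 windows (1.59%) and in 0.183% of all promoter windows. ID3 holds 1 CAGAC, and the windows of ID1 and ID2 hold none of these letters, which says nothing of elements farther away.

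**Figure D4:**
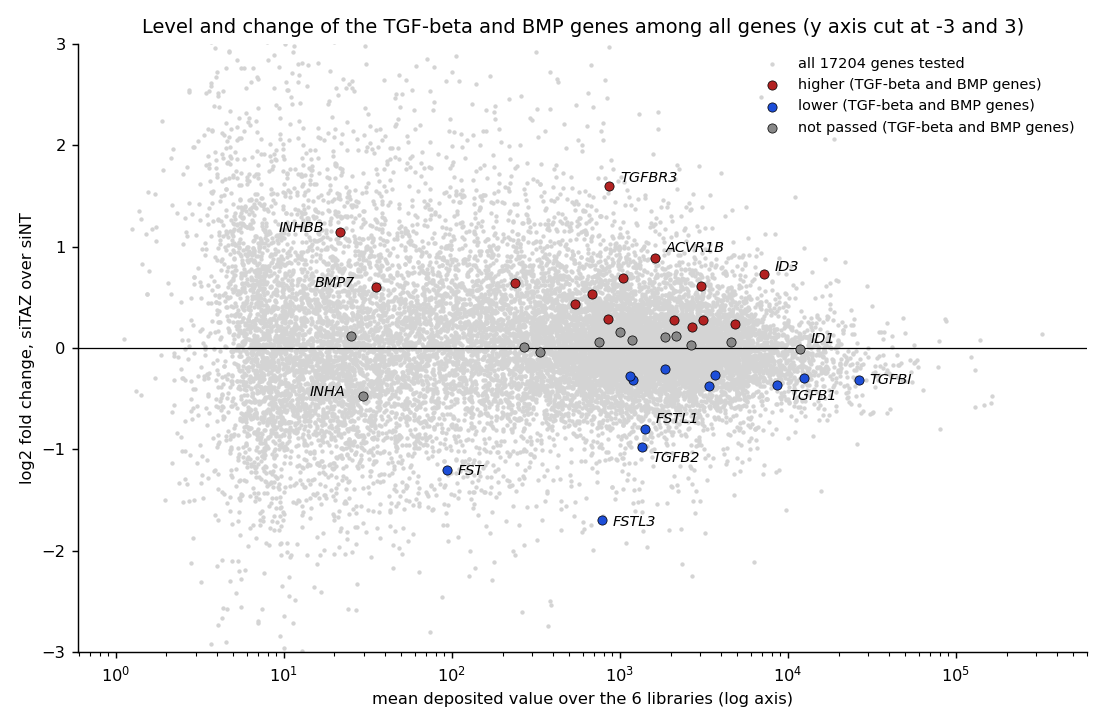
Mean deposited value over the 6 libraries (log x axis) against log2 fold change, siTAZ over siNT (y axis), for all 17204 genes tested (pale grey) and the 39 TGF-beta and BMP genes (red higher, blue lower, dark grey not passed). The y axis ends at -3 and 3 and leaves out 64 genes; of the 39 genes, FSTL3 and TGFBR3 lie farthest from 0.

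Other genes of the pathway were read from 8 lists, 142 genes measured of 175, of which 46 rose, 46 fell and 50 did not pass. The share called, 64.8%, was near the 66.1% of genes whose mean reached 100 and above the 55.8% of all genes. Of 8 further ligands measured, 2 rose and 4 fell. GDF9, 1 of these 4 and named after its values were seen, was scarce (limma adjusted p = 0.046). It kept its call in 7 of 16 alternatives. AMH, the anti-Mullerian hormone, fell from 387 ± 27.2 to 201 ± 27.5 and GDF11, a ligand of activin receptors, from 2060.4 ± 121 to 1586 ± 18.8 (log2 fold changes -0.95 and -0.38, limma adjusted p = 7.3e-07 and 1.6e-05). BMP8B rose from 91.2 ± 2.58 to 249 ± 1.74 and BMP8A from 7.11 ± 2.3 to 25.3 ± 3.49 (limma adjusted p = 3.8e-09 and 1.5e-04), though these neighbours are near-identical copies and their reads are uncertain.

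Of 18 genes that store or activate ligands, 10 rose (55.6%) and 5 fell (27.8%), against 28.3% and 27.5% of all genes. Of genes whose mean reached 100, 32.5% rose and 33.7% fell. The median over the 18 genes was 0.26 on the log2 scale. The proprotein convertases that cut ligand precursors diverged. FURIN, the best known of them, fell from 15053 ± 662 to 10028 ± 692, while PCSK5 rose from 545 ± 20.1 to 1299 ± 42.4 and PCSK6 from 687 ± 28.4 to 1097 ± 62.4 (log2 fold changes -0.59, 1.25 and 0.67, limma adjusted p = 6.9e-08, 3.5e-11 and 1.2e-07). ITGB8, an integrin chain that frees latent TGF-beta, rose from 406 ± 11.9 to 762 ± 108 (limma adjusted p = 1.5e-07).

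Of 9 other receptors and co-receptors, 3 rose (33.3%), 1 fell (11.1%) and 5 did not pass, against 28.3% higher and 27.5% lower of all genes. ACVR1C, the type I receptor ALK7, rose from 18.7 ± 2.88 to 76.2 ± 7.78 and NEO1, neogenin, which binds the BMP co-receptors of the RGM family, from 99.6 ± 15.3 to 175 ± 5.3 (log2 fold changes 1.98 and 0.82, limma adjusted p = 2.0e-07 and 2.8e-05). BOC, a membrane protein better known from hedgehog signalling, rose from 20.5 ± 3.87 to 41.8 ± 11.02, and RGMB, a BMP co-receptor, fell from 671 ± 37.9 to 552 ± 27.2 (limma adjusted p = 0.0028 and 0.0024). Among 10 other secreted antagonists, 3 rose and 4 fell. CRIM1, a membrane-tethered BMP antagonist, fell from 8395 ± 255 to 5320.1 ± 44.9 and BMPER, a BMP-binding regulator, from 42.7 ± 8.21 to 11.7 ± 0.931 (log2 fold changes -0.66 and -1.76, limma adjusted p = 1.7e-09 and 8.7e-06). The antagonists NBL1 and SOSTDC1 rose, from 542 ± 20.7 to 697 ± 73.9 and from 20.4 ± 3.71 to 41.9 ± 7.21 (limma adjusted p = 8.2e-04 and 0.0012). The third that rose, noggin (NOG), which traps BMPs and was named after its values were seen, went from 25.9 ± 4.97 to 47.5 ± 4.5 (limma adjusted p = 0.0018).

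Of 34 SMAD partners, corepressors and turnover genes, 9 rose (26.5%), 6 fell (17.6%) and 19 did not pass. The share called, 44.1%, was below the 55.8% of all genes, of which 28.3% rose and 27.5% fell. KAT2B, an acetyltransferase coactivator, rose from 280.0 ± 20.97 to 761 ± 65.99, WWP1, a ubiquitin ligase of the SMURF family, from 1364 ± 62.1 to 2687 ± 146, and ZFYVE9 (SARA), which presents SMAD2 and SMAD3 to the receptor, from 659 ± 38.2 to 1247 ± 32.6 (log2 fold changes 1.44, 0.98 and 0.92, limma adjusted p = 2.7e-10, 2.8e-10 and 1.9e-09). PEG10, a gene of retroviral origin, rose from 6467 ± 109.9 to 9654 ± 546 (limma adjusted p = 2.8e-08). Of 18 genes of the branch that runs through TAK1 and p38 without SMADs, 8 rose (44.4%) and 5 fell (27.8%). MAPK14 (p38 alpha) fell from 2359 ± 29.6 to 1283 ± 63.3 while MAP2K6, a kinase that activates it, rose from 235 ± 15.4 to 457 ± 11.2 (limma adjusted p = 4.8e-10 and 3.2e-08). LIMK1, a kinase of actin turnover, and the adaptor SHC1 fell, to 1989 ± 112 from 3854 ± 265 and to 7215 ± 298 from 11033 ± 272 (limma adjusted p = 5.7e-10 and 6.8e-09).

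Downstream, 16 of 29 genes known to respond to TGF-beta or activin fell, 3 rose and 10 did not pass. Over all genes the test called 27.5% lower and 28.3% higher, against 55.2% and 10.3% of this list, whose median log2 fold change was -0.20. Of genes whose mean reached 100 it called 33.7% lower and 32.5% higher. Earlier results for ANGPTL4, CCN2, IL11, JUNB and TAGLN were known when the list was written, and without these 5 genes 12 of 24 fell and 3 rose, with a median of -0.17. The 4 with the smallest adjusted p were GADD45B, a stress sensor, PTHLH, a hormone-like peptide, IL11, a cytokine, and ANGPTL4, an inhibitor of lipoprotein lipase. GADD45B fell from 1850.2 ± 73.2 to 605 ± 40.04 and PTHLH from 2295 ± 111 to 592 ± 84.5 (log2 fold changes -1.61 and -1.96, limma adjusted p = 2.9e-12 and 5.1e-12). IL11 fell from 652 ± 43.9 to 116 ± 18.9 and ANGPTL4 from 1516 ± 82.9 to 579.7 ± 73.7 (log2 fold changes -2.50 and -1.39, limma adjusted p = 1.0e-11 and 2.3e-10). The 3 that rose, named after their values were seen, were COL3A1, a fibrillar collagen, from 661 ± 76.9 to 1408 ± 94.2, KLF10, a zinc finger factor, from 1987 ± 67.8 to 2414 ± 122, and LMCD1, a LIM domain protein, from 713 ± 3.08 to 791 ± 28.8 (log2 fold changes 1.09, 0.28 and 0.15, limma adjusted p = 4.2e-09, 2.6e-04 and 0.046). Many of these genes also respond to other signals, and which input moved them was not tested.

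Of 17 measured genes known to respond to BMP, 8 rose, 5 fell and 4 did not pass. The share called was thus 76.5%, with 47.1% higher and 29.4% lower, against 55.8%, 28.3% and 27.5% of all genes. Of genes whose mean reached 100 the test called 66.1%, with 32.5% higher and 33.7% lower. The median of the 17 genes was 0.24 on the log2 scale. LFNG, a glycosyltransferase that modifies NOTCH, rose from 1605 ± 111 to 3465 ± 103, ATOH8, a helix-loop-helix factor, from 598 ± 56.1 to 915 ± 119, and ZNF423, a zinc finger factor that joins BMP SMADs, from 42.6 ± 7.84 to 107 ± 15.6 (log2 fold changes 1.11, 0.61 and 1.32, limma adjusted p = 5.0e-11, 1.6e-05 and 5.4e-06). DLX2, a homeobox factor, fell from 4539 ± 216 to 3042 ± 50.7 (limma adjusted p = 3.0e-08). The lists of responders to TGF-beta and to BMP were not compared by a test.

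**Figure D5:**
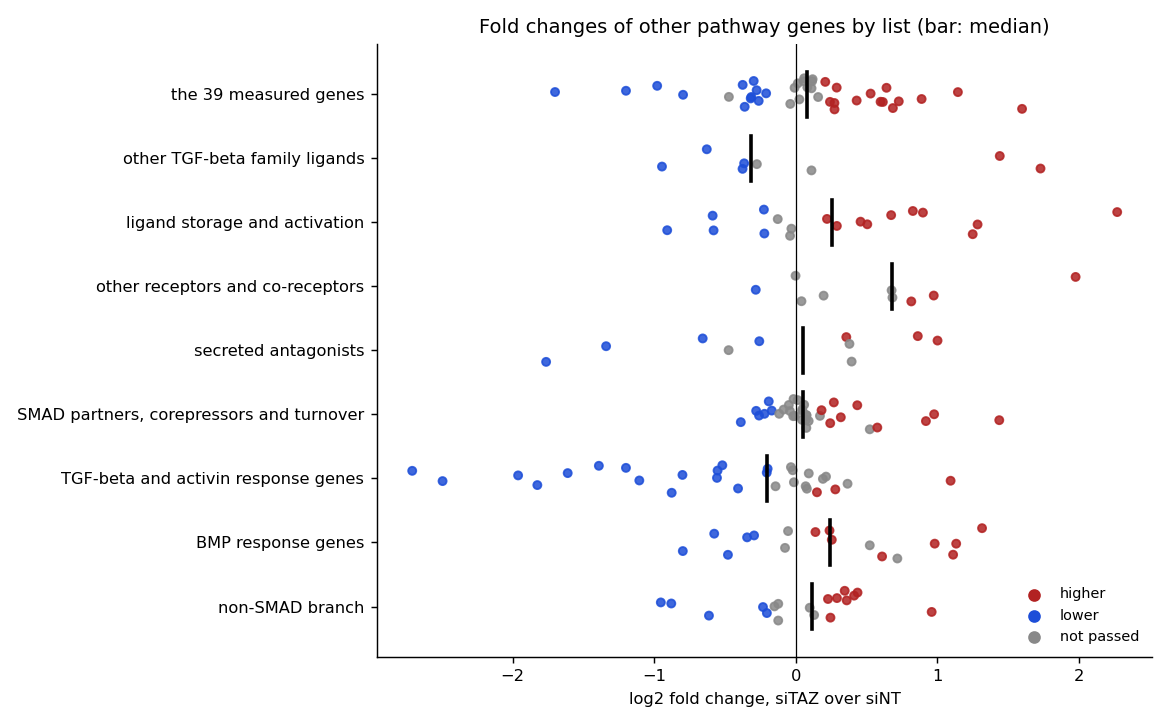
Log2 fold change, siTAZ over siNT (x axis), of the 39 genes and of the measured genes of 8 other pathway lists (rows); each point is a gene, coloured by limma's call, with a small vertical offset for clarity, and black bars are medians. The median of the genes that respond to TGF-beta and activin is -0.20 and that of the BMP responders 0.24.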

How the data were processed

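RNA was sequenced from 6 CAOV2 libraries, 3 siNT and 3 siTAZ, grouped by their titles. The library kit selects mRNA and keeps strand, per the labels' protocols. FastQC, HISAT2, HTSeq and DESeq2 were used on build hg19, per the submitters' processing notes; their versions, the annotation, strand setting and gene filter were not given in the sources used here. As deposited, each value is a signal, reads divided by 1 size factor per library by the authors: for 100% of them, division by 1 step per library gave an integer to within 0.001 of a read. The reads so recovered were 25478595 to 28928432 in siNT and 28458503 to 34488196 in siTAZ. At these depths counting error weighs most on scarce genes such as INHBA, INHBB, INHA and BMP7.

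The design named edgeR for raw counts and limma for normalized values, so limma 3.58.1 (R 4.3.3, intensity trend, group as the only term, all 6 libraries) was fitted to log2(value + 1) for 17204 genes whose mean reached 1, with Benjamini-Hochberg adjustment over all of them. Log2 fold changes on that scale understate the change of low genes. EdgeR 4.0.16, DESeq2 1.42.0 and limma voom on the recovered reads, other pseudocounts, filters and scalings, a replicate block and leaving out each library were the alternatives. The tools were tested on simulated data. Ratios of paired genes, each taken as value + 1, were compared by exact permutation with scipy 1.17.1. Symbols came from a table of Ensembl identifiers, and exon lengths and overlaps from GENCODE release 29, which is of GRCh38. Named were all 40 listed genes, WWTR1 and, per list, up to 4 called genes with the smallest adjusted p. The genes and lists were chosen with earlier results of these data known. Nothing in the labels says whether replicates came from separate thaws or days, so p-values measure the spread between these libraries, which may be partly technical.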

Additional observations from a re-analysis of the deposited data

How the results depend on the processing

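Over 17 alternatives, the numbers of the 39 genes called higher and lower stayed between 13 and 19 and between 11 and 12, against 15 and 12 as reported. Total count scaling gave 19 rises, moved the median of all genes to 0.052 and called 5561 of them higher and 4046 lower. Leaving out 1 library gave 14 to 17 rises and 11 to 12 falls. Of the 27 called genes, 24 kept their call in each alternative that tested them (INHBB, INHBA and INHA were not tested with a minimum of 1 CPM in 3 libraries); BMP7, BMP1 and SMAD5 did not. The counts over all genes, 4874 higher and 4730 lower, ran from 4299 to 4885 and from 4203 to 4789 without 1 library, and those of the other pathway lists, 46 and 46, from 43 to 47 and from 42 to 46. Without 1 library the log2 ratio differences ran from 0.99 to 1.56 for INHBA to FST, -0.74 to -0.60 for TGFB2 to TGFB1, 0.45 to 0.50 for SMAD7 to SMAD3 and -0.64 to -0.59 for ID1 to ID2. Direction changed only in genes that had not passed, and the cause was not tested. Under total count scaling TGFB3 was at 0.015 and ID1 at 0.045. On leaving out 1 library TGFB3 ranged from -0.11 to 0.017, INHBA from -0.0895 to 0.25, BMP4 from -0.057 to 0.13, BMPR1A from -0.013 to 0.13, SKIL from -0.029 to 0.11 and ID1 from -0.052 to 0.025. Same-numbered libraries did not deviate together (correlations -0.14, -0.083 and 0.024 over 15460 genes), so the numbers were not taken as pairs. With the replicate block 15 of the 39 genes were called higher and 12 lower, the main counts, and over all genes 4439 and 4262. Genes scarce in these libraries, INHA, INHBA, INHBB and BMP7, have the widest intervals.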
